A study of Sus scrofa with 16 samples.

Results

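Complement and coagulation are cascades of plasma proteins that are made for the most part by hepatocytes and secreted into the blood. In complement, recognition proteins and their proteases act on a microbial or damaged surface and lead to cleavage of C3, then of C5, and to assembly of a pore from the terminal components. In coagulation, zymogens of serine proteases activate each other until thrombin turns fibrinogen into fibrin, and plasmin later dissolves it. Both cascades are held in check by inhibitors, many of which are serpins that also come from the liver.

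The expression of 37 such factors and inhibitors was examined in the livers of 16 pigs. The list holds 14 complement components, 5 complement regulators, 11 factors of coagulation, of the contact system and of fibrinolysis, and 7 anticoagulants and protease inhibitors. A member is a gene ID present in the first column of every count table whose pig symbol is on the list. In all, 35 of the 37 symbols were matched, of 25880 gene IDs in the tables, and the fibrinogen chains and C1q stand outside the list. No gene ID was matched to C1R and C1S, the proteases of the C1 complex, and these are not analysed here.

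The animals were crossbred fatteners, offspring of Polish Landrace x Polish Large White sows and Duroc x Pietrain boars, each housed alone on straw. They were fattened from 60 to 118 kg of body weight on diets of similar energy and protein that differed in the added fat. Group R received rapeseed oil (n = 5, 3 gilts and 2 barrows), group B beef tallow (n = 5, with 3 barrows and 2 gilts) and group C coconut oil (n = 6, 3 gilts and 3 barrows). Each pig gave a separate liver sample, age is not given in the sources used here, and there was no group without added fat. The question was whether the type of fat goes along with a different liver expression of these factors.

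Libraries were of the 3′ type, in which reads come from the end of each polyadenylated transcript, and held 705669 to 1767671 reads assigned to genes (median 1018322). Levels are given as CPM after TMM scaling, that is, reads of a gene relative to the reads on genes kept by the filter on low counts. They were not divided by transcript length since such reads come from the transcript end. An order of levels between genes is therefore an order of reads. The hepatocyte markers were abundant, with 10 of 10 matched and ALB, the gene of albumin, at 88809 CPM on average. 

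The library of B pig 3 stood apart from the rest. On the first principal component of all genes kept, which held 19.3% of the variance, it had a score of 62.7, while the other 15 pigs lay between -20.2 and 18.6. This pig also held the lowest level of 8 and the highest of 10 of the 34 detected members, a sum of 18. The next highest sum was 8, in B pig 5. Many values of group B below are also given without B pig 3.

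Of the 35 matched members, 34 were detected, with at least 10 reads over all pigs. Together the members took 2.53 to 3.36% of the reads on genes. C3, the component on which all routes of complement activation converge, had the most reads, at 7916 ± 1323 CPM (mean ± SD) in R, 6921 ± 786 in B and 7031 ± 494 in C, and alone took 21.8 to 26.7% of the reads on members. It was followed by CLU (clusterin, an inhibitor of the terminal complex), F2 (prothrombin), SERPINC1 (antithrombin), PROC (protein C) and KNG1 (kininogen). Over the 16 pigs these averaged 2989.8, 2566, 2484, 2117 and 1827 CPM. In all, 9 members averaged at least 1000 CPM, 16 lay between 100 and 1000, and 9 lay under 100 CPM.

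At the low end were MBL2 (mannose-binding lectin) at 7.52 CPM and C9 (the pore-forming terminal component) at 11.3 CPM, with at most 20 and 23 reads in a pig. SERPINA1, the gene of alpha-1-antitrypsin, had 7 reads in all 16 pigs together. It did not pass the filter of edgeR in any pair of diets, and DESeq2 did not call it. Between 15.9 and 30.1% of the reads of a pig fell on no annotated gene and 15.4 to 38.1% aligned to several places, and neither kind was counted. Whether reads of SERPINA1, C9, MBL2 or PLG are among these was not tested.

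**Figure D1:**
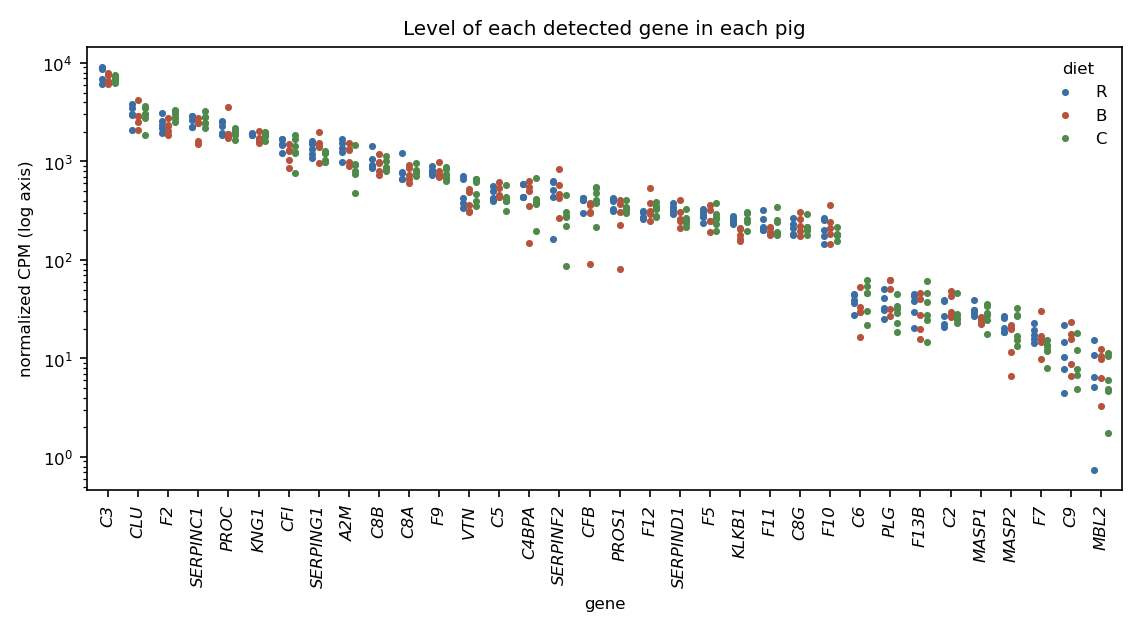
Normalized CPM (log axis) of the 34 detected complement and coagulation genes in each of 16 pigs, ordered by mean level, with points coloured by diet (R rapeseed oil, B beef tallow, C coconut oil); a value of 0 (C9 in C pig 3) is not drawn. C3 lies highest, and single B points stand below the rest for CFB, C4BPA and PROS1.

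No member passed the threshold of 0.05 for the adjusted p in any comparison (edgeR quasi-likelihood test, Benjamini-Hochberg adjustment over all genes tested). Between B and R, 0 of 33 members tested passed, beside 1.11% of all 6318 genes. Between C and R it was 0 of 33 beside 0.138% of 6528, and between C and B 0 of 34 beside 0.0587% of 6812. In the test of any difference among the 3 diets 0 of 34 passed, beside 0.711% of 6891. With so few genes called over the whole table, a count of 0 among the members does not set them apart.

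At an unadjusted p under 0.05 there was 1 member between B and R (KLKB1), beside 14.99% of all genes. There were 4 between C and R (A2M, SERPIND1, SERPINF2 and F7), beside 12.97%. All 4 were lower in C, where 6.53% of all genes were lower at that level. There were 5 between C and B (KLKB1, SERPINF2, F2, PLG and SERPING1), beside 11.5%, and 3 over the 3 diets (KLKB1, SERPINF2 and A2M), beside 15.9%. In the fits without B pig 3 it was 3 of 33 members between B and R (PLG, SERPIND1 and KLKB1) and 5 of 34 between C and B (PLG, F2, KLKB1, C9 and SERPINF2). In these fits 149 of 6436 and 6 of 6783 genes passed the adjusted threshold. Here and below, the share of all genes at that unadjusted level is not given for the diet fits without B pig 3. Counts from them are therefore not read as results about a list. The comparisons share pigs, so that a gene can appear in several of them through the same samples.

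DESeq2, run as the other tool, called 1 member, KLKB1, between B and R, between C and B and over the 3 diets, and 0 members between C and R. Over all genes with an adjusted p, DESeq2 called 3.24% between B and R, 2.61% between C and R, 2.46% between C and B and 4.29% over the 3 diets, so that 1 member of 25 to 33 with an adjusted p is near these shares. When DESeq2 tested every gene without its filter on mean count, a setting added after the data were seen, it called 0 of 35 members in each pair. Over all genes it then called 125 of 15121 between B and R, 40 of 15209 between C and R and 18 of 15369 between C and B. A count of 0 members is near these shares. In the samples used here, which are pieces of whole liver, fewer cells of a type and less RNA per cell cannot be told apart.

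Among the complement components, the lectin pathway is opened by MBL2 with its proteases MASP1 and MASP2. MASP1 was measured at 30.9, 28.7, 27.1, 30.9 and 39.3 CPM in R pigs 1 to 5 and at 22.9, 26.5, 24.9, 22.3 and 24.3 CPM in B pigs 1 to 5. In C the lowest, median and highest values were 17.7, 28.3 and 35.5 CPM. All 5 B pigs lay below all 5 R pigs, while C overlapped both groups. The log2 fold change of B against R was -0.38 ± 0.20 (SE; edgeR adjusted p = 0.379), and -0.39 without B pig 3. These values rest on 21 to 51 reads per pig. Groups B and R did not overlap for 2 of 33 members, MASP1 and KLKB1, beside 4.57% of all genes tested. For C against R and C against B this held for 0 of 33 and 0 of 34 members, beside 1.46% and 1.45% of all genes.

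MASP2, which cleaves C4 and C2, was measured at 18.4, 18.5, 27.1, 20.6 and 25.6 CPM in R and at 19.9, 20.2, 6.56, 11.7 and 22.1 CPM in B. B pig 3 was the lowest of all pigs and the groups overlapped. For B against R the log2 fold change was -0.47 ± 0.31 (edgeR adjusted p = 0.505), and -0.24 ± 0.26 without B pig 3. MBL2 averaged 7.71 ± 5.60 CPM in R, 8.54 ± 3.66 (7.56 without B pig 3) in B and 6.52 ± 3.68 in C, and passed the filter on low counts in the pair of C and B and over the 3 diets, not in the other pairs.

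CFB (factor B, the protease of the alternative pathway) and C2, its counterpart in the classical and lectin pathways, are neighbours on chromosome 7, 35 bases apart in the RefSeq annotation of Sscrofa11.1. CFB was measured at 422, 402, 430.5, 297 and 407 CPM in R and at 379.8, 364, 91.2, 306 and 299 CPM in B, and in C the lowest, median and highest values were 216, 443 and 553. B pig 3 lay far below all others, and the remaining pigs of the 3 diets overlapped. For B against R the log2 fold change was -0.45 ± 0.28 (edgeR adjusted p = 0.476) and became -0.22 ± 0.16 without that pig. For C against B it was 0.59 ± 0.30 (edgeR adjusted p = 0.473) and 0.35 ± 0.22 without that pig. C2 was about 31.2 CPM over all pigs, with a log2 fold change of 0.25 for B against R and -0.30 for C against B, of opposite sign to CFB in both. Without B pig 3 they were 0.16 and -0.21.

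C3 was measured at 9068, 8821, 6872, 6135 and 8685 CPM in R, at 6468, 7545, 7930.5, 6611 and 6050.2 in B and between 6212 and 7607 in C. The 3 highest values were all in R, and the other R pigs lay within the range of B. The log2 fold change was -0.19 ± 0.17 for B against R and -0.18 ± 0.15 for C against R, with 95% intervals of -0.56 to 0.17 and -0.49 to 0.14. C5, cleaved by the convertases that C3 helps to form, averaged 462 ± 69.7, 496 ± 80.1 (512 without B pig 3) and 423 ± 83.3 CPM in R, B and C.

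The terminal components on the list, C6, C8A, C8B, C8G and C9, are parts of the membrane attack complex, together with C5b. C7, another part of it, stands outside the list. C8A and C8B, which lie 11821 bases apart on chromosome 6, averaged 794 and 961 CPM, and C8G, whose product pairs with the C8 alpha chain, 222 CPM. Their log2 fold changes lay between -0.17 (C8B, C against R) and 0.13 (C8G, B against R) over the 3 pairs. Without B pig 3 the range was wider, from -0.25 (C8B, B against R) to 0.18 (C8A, C against B). C6 averaged 38.6 ± 6.98, 32.5 ± 13.4 (36.5 without B pig 3) and 43.8 ± 15.2 CPM in R, B and C, with a log2 fold change of -0.25 (-0.06 without B pig 3) for B against R and 0.42 (0.23 without B pig 3) for C against B. C9, with few reads, had a 95% interval of -1.75 to 0.22 on the log2 scale for C against B, and of -1.92 to -0.03 without B pig 3.

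Of the complement regulators, SERPING1 (C1 inhibitor, which blocks C1r, C1s and the MASP proteases as well as kallikrein) was measured at 1092, 1599, 1197, 1338 and 1510.5 CPM in R and at 1418, 1494, 2002, 1534 and 969 CPM in B. In C the lowest, median and highest values were 982, 1122 and 1290.4 CPM. The C pigs lay in the lower part of the range, overlapping R and, through B pig 5, group B. Its log2 fold change was -0.41 ± 0.18 for C against B (edgeR adjusted p = 0.404) and -0.27 ± 0.15 for C against R (edgeR adjusted p = 0.452). B pig 3 held the highest value of all, and without it the difference of C from B was -0.27 ± 0.16.

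CFI (factor I, the protease that inactivates C3b and C4b) was measured at 1673, 1697, 1505, 1208 and 1484 CPM in R, at 1321, 1286, 849, 1495 and 1029 CPM in B, and at 769, 1336 and 1875 CPM (lowest, median and highest) in C. The B values reached lower than those of R and the groups overlapped. For B against R the log2 fold change was -0.34 ± 0.18 (edgeR adjusted p = 0.386), and -0.24 ± 0.16 without B pig 3. C4BPA (C4b-binding protein, a cofactor of factor I) averaged 499 ± 86.2, 439 ± 192 (511 without B pig 3) and 409 ± 156 CPM in R, B and C, with a log2 fold change of -0.19 (0.04 without B pig 3) for B against R. CLU averaged 3075 ± 665, 2916 ± 769 (2602 without B pig 3) and 2980.2 ± 627 CPM, and VTN (vitronectin, another inhibitor of the terminal complex) 502 ± 172, 399.7 ± 104 (410.2 without B pig 3) and 528 ± 142 CPM.

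In the contact system, KLKB1 (plasma prekallikrein, the zymogen that releases bradykinin from kininogen) gave the smallest p of any member. The gene lies on chromosome 15, bases 47071581 to 47100272 in the RefSeq annotation of Sscrofa11.1. It was measured at 269, 245, 257, 233 and 279 CPM in R pigs 1 to 5 and at 207, 211, 163, 179.6 and 157 CPM in B pigs 1 to 5. In C the lowest, median and highest values were 195, 279.7 and 304 CPM. All 5 B pigs lay below all 5 R pigs, and 5 of 6 C pigs lay above every B pig. The B mean was 0.715 times the R mean, and the C mean 1.45 times the B mean.

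The log2 fold change of KLKB1 was -0.48 ± 0.16 for B against R (95% interval -0.81 to -0.15, edgeR adjusted p = 0.141) and 0.54 ± 0.16 for C against B (95% interval 0.19 to 0.89, edgeR adjusted p = 0.257). For C against R it was 0.05 ± 0.15, and over the 3 diets the edgeR adjusted p was 0.123. Without B pig 3 the values were -0.44 ± 0.15 and 0.50 ± 0.17, so that the difference did not rest on that library. DESeq2 gave an adjusted p of 0.0441 for B against R, of 0.0374 for C against B and of 0.0131 over the 3 diets. Over all alternatives, the adjusted p ran from 0.0441 to 0.320, from 0.0374 to 0.594 and from 0.0131 to 0.256, in that order. The sign was the same under every alternative, and the call was made by DESeq2 with its default filter and by no other setting. Without that filter DESeq2 gave an adjusted p of 0.109 for B against R and 0.172 for C against B.

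KNG1, the substrate of kallikrein, varied least of all detected members between pigs of a diet, with a mean coefficient of variation of 7.10%. It averaged 1890.4 ± 31.2, 1728 ± 203 (1645 without B pig 3) and 1856 ± 147 CPM in R, B and C. F12, which activates prekallikrein, averaged 294 ± 24.8, 353 ± 112 (308 without B pig 3) and 327 ± 43.5 CPM, with B pig 3 the highest of all. Its log2 fold change was 0.27 (0.07 without B pig 3) for B against R and -0.11 (0.08 without B pig 3) for C against B. F11, the factor that links contact activation to coagulation, was measured at 260.4, 203, 215, 199.9 and 322 CPM in R and at 179, 212, 182, 191 and 216 CPM in B, and in C at 179, 219 and 345 CPM (lowest, median and highest). The B pigs were closely grouped near the low end of R, and the C pigs spread from that end to the highest value of all. For B against R the log2 fold change was -0.29 ± 0.17 (edgeR adjusted p = 0.439), and -0.35 to -0.16 with each pig left out in turn.

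F2, whose product thrombin cleaves fibrinogen, was measured at 2186, 2328, 2557, 1926 and 3095 CPM in R and at 2306, 2774, 1871, 2337 and 2046 CPM in B. In C the lowest, median and highest values were 2545, 2875 and 3311 CPM. The C pigs lay toward the high end, and each pair of diets overlapped. Its log2 fold change was 0.38 ± 0.15 for C against B (edgeR adjusted p = 0.365; 0.31 ± 0.15 without B pig 3) and 0.28 ± 0.15 for C against R (edgeR adjusted p = 0.463).

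F7, which starts coagulation together with tissue factor, is a neighbour of F10 on chromosome 11, with 3092 bases between them. It was measured at 22.8, 17.4, 19.4, 14.4 and 15.7 CPM in R and at 16.8, 14.9, 30.2, 15.9 and 9.95 CPM in B, and in C the lowest, median and highest values were 7.95, 12.8 and 15.4 CPM. C lay low, overlapping the lower R and B pigs, and B pig 3 was the highest of all. The log2 fold change was -0.58 ± 0.24 for C against R (edgeR adjusted p = 0.310), on 14 to 31 reads per R pig and 10 to 21 per C pig. For C against B it was -0.57 ± 0.29 (edgeR adjusted p = 0.470) and -0.26 ± 0.27 without B pig 3. F10, the common target of both arms, averaged 209 ± 52.3, 229.5 ± 83.9 (195 without B pig 3) and 183 ± 19.4 CPM in R, B and C. B pig 3 was the highest of all here too, and the log2 fold change was 0.14 (-0.10 without B pig 3) for B against R and -0.33 (-0.09 without B pig 3) for C against B.

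F9, encoded on the X chromosome, averaged 803 ± 66.5, 791 ± 123 (739 without B pig 3) and 739 ± 96.9 CPM, and F5, the cofactor of factor Xa, 285 ± 34.1, 277 ± 68.3 (298 without B pig 3) and 273 ± 63.5 CPM. F13B, the carrier subunit of the factor that crosslinks fibrin, averaged 35.4 ± 10.2, 29.8 ± 12.7 (30.3 without B pig 3) and 35.3 ± 16.9 CPM. The log2 fold changes of these 3 genes did not pass the test in any pair and lay between -0.26 and 0.23, both of F13B, which with each pig left out in turn ran from -0.46 to -0.12 for B against R and from 0.00 to 0.42 for C against B.

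PLG (plasminogen, the zymogen of plasmin) was measured at 25.01, 32.8, 41.4, 30.9 and 50.2 CPM in R and at 61.9, 31.8, 26.9, 51.00 and 61.9 CPM in B, and in C at 18.5, 30.1 and 44.8 CPM (lowest, median and highest). B was divided, with pigs 1, 4 and 5 above all R and C pigs and the others within their range. The log2 fold change of C against B was -0.61 ± 0.26 (edgeR adjusted p = 0.393), and -0.77 ± 0.24 without B pig 3. Its value for B against R was 0.38 (0.54 without B pig 3).

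SERPINF2 (alpha-2-antiplasmin, the main inhibitor of plasmin) had the largest log2 fold change in size of the members tested by edgeR in both comparisons with C. Without B pig 3, C9 (-0.98) and PLG (-0.77) were larger for C against B. It was measured at 637, 615, 164, 509 and 439 CPM in R pigs 1 to 5 and at 425, 467, 839, 580.1 and 269 CPM in B pigs 1 to 5. In C the lowest, median and highest values were 87.1, 277 and 461 CPM. Most C pigs lay below most R and B pigs, but R pig 3 was lower than all C pigs except 1, and the groups overlapped. The C mean was 0.575 times the R mean and 0.527 times the B mean. Its log2 fold change was -0.80 ± 0.33 for C against R (edgeR adjusted p = 0.307) and -0.92 ± 0.32 for C against B (edgeR adjusted p = 0.300; -0.67 ± 0.31 without B pig 3). It also varied widely within a diet, with a mean coefficient of variation of 42.04%.

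A2M (alpha-2-macroglobulin, a trap for proteases of many kinds) was measured at 1249.9, 1531, 983, 1681 and 1368 CPM in R and at 1342, 893, 1526, 1322 and 983 CPM in B. In C the lowest, median and highest values were 484, 862 and 1469.8 CPM. Apart from C pig 3, the C pigs lay below all R pigs. The log2 fold change of C against R was -0.61 ± 0.22 (95% interval -1.07 to -0.15, edgeR adjusted p = 0.253), and of C against B -0.44 (-0.34 without B pig 3). SERPIND1 (heparin cofactor II, an inhibitor of thrombin) was measured at 345, 382, 292, 340.0 and 314 CPM in R, at 262, 248, 410.2, 309 and 211 CPM in B, and at 215, 257 and 327 CPM (lowest, median and highest) in C. Here too C pig 3 was the C pig that reached into the range of R. B pigs 1, 2 and 5 also lay below all R pigs, and B pig 3 was the highest of all. The log2 fold change of C against R was -0.37 ± 0.14 (edgeR adjusted p = 0.270). Of B against R it was -0.21 ± 0.19, and -0.38 ± 0.16 without B pig 3 (edgeR adjusted p = 0.632 and 0.218).

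SERPINC1, the inhibitor of thrombin and factor Xa, averaged 2577 ± 335, 2164 ± 575 (2329 without B pig 3) and 2672 ± 369 CPM in R, B and C. In the protein C pathway, which inactivates factors Va and VIIIa, PROC averaged 2235 ± 322, 2179.9 ± 794 (1827 without B pig 3) and 1966 ± 191 CPM, and its cofactor PROS1 (protein S) 378 ± 53.4, 277 ± 128 (326 without B pig 3) and 337 ± 36.2 CPM. B pig 3 had 3592 CPM of PROC, above the 15 other pigs at 1664 to 2583. The same pig had 80.1 CPM of PROS1, below the others at 228 to 431, and 1504 CPM of SERPINC1, below 1602 to 3248. For C against B the log2 fold change of PROS1 was 0.29 (0.05 without B pig 3), and for B against R -0.45 (-0.21 without B pig 3). In B pig 3, 33.2% of reads aligned to several places, and the part of this in its values was not tested.

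**Figure D2:**
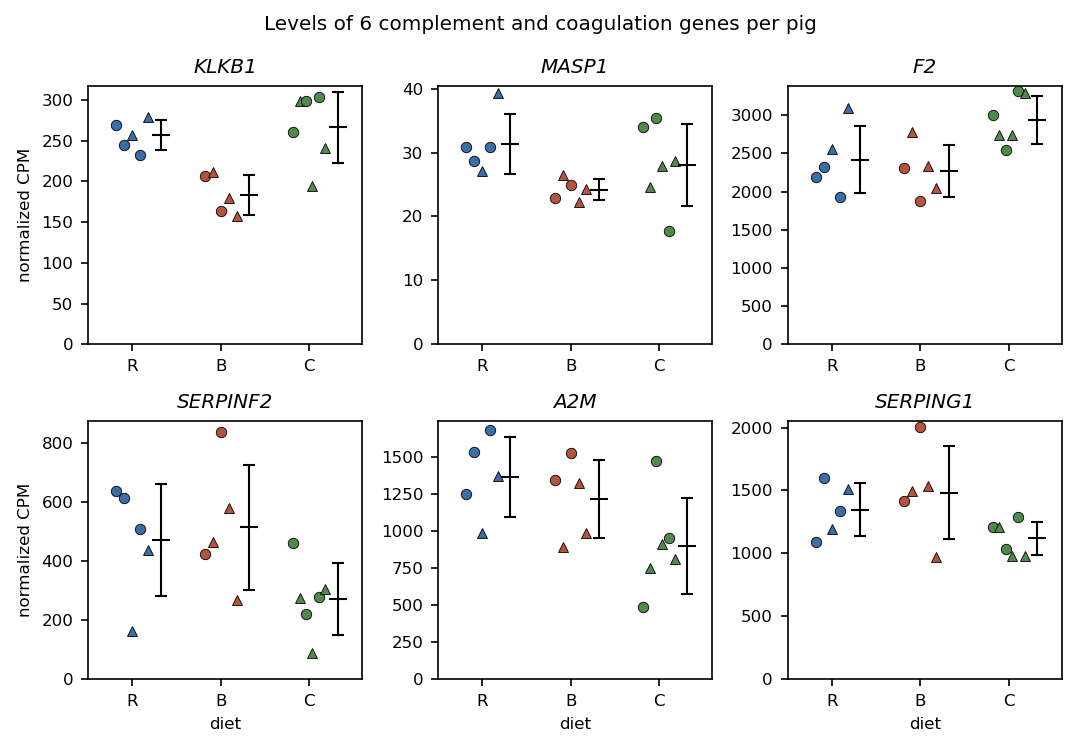
Normalized CPM of KLKB1, MASP1, F2, SERPINF2, A2M and SERPING1 in each pig by diet (R rapeseed oil, n = 5; B beef tallow, n = 5; C coconut oil, n = 6), with circles for gilts, triangles for barrows, and the mean ± SD beside each group. All B pigs lie below all R pigs for KLKB1 (at most 211 against at least 233 CPM) and MASP1, and the diets overlap for the other genes.

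By role, the median log2 fold change of B against R was -0.15 for the complement components, -0.19 for the complement regulators, -0.04 for coagulation, contact and fibrinolysis, and -0.19 for the anticoagulants and protease inhibitors. For C against R these medians were -0.05, -0.15, -0.05 and -0.28, and for C against B 0.01, 0.03, -0.02 and -0.15. Over all members tested the median was -0.13 for B against R, beside 0.01 for all genes. It was -0.12 for C against R and -0.02 for C against B, where all genes had -0.00 and -0.00. Without B pig 3 the member median was -0.20 for B against R and 0.08 for C against B, with the opposite sign for C against B. By role, in the order above, the medians without B pig 3 were -0.19, -0.24, -0.12 and -0.24 for B against R, and 0.08, 0.10, 0.08 and 0.03 for C against B. Of 33 members, 24 were on the lower side in B against R and 24 in C against R, or 72.7% in each, where 48.5% and 50.1% of all genes were. In C against B it was 18 of 34, and 13 without B pig 3. These are descriptions without a test, and both comparisons with R share the R pigs.

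The 95% intervals show how far a difference could reach at this sample size. The interval of 4 of 33 members included a difference of at least 1 log2 unit in either direction for B against R, as it did for 4 of 33 for C against R and 8 of 34 for C against B. Over all genes tested this held for 1845 of 6318, 1181 of 6528 and 1752 of 6812, in that order. Leaving out B pig 3, it was 2 of 33 members for B against R and 4 of 34 for C against B, and the share of all genes is not given for these fits. With all pigs, for the other members a difference of 1 log2 unit or more lay outside the interval. As a share of reads on genes, the complement components took 1.07 ± 0.163% in R, 0.968 ± 0.108% in B and 0.985 ± 0.0540% in C, and the regulators 0.675 ± 0.0784, 0.638 ± 0.0914 and 0.631 ± 0.0896%. Coagulation, contact and fibrinolysis took 0.631 ± 0.0584, 0.606 ± 0.0439 and 0.682 ± 0.0363%, and the anticoagulants and inhibitors 0.716 ± 0.0695, 0.657 ± 0.106 and 0.631 ± 0.0375%. For each role the pigs of the 3 diets overlapped.

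**Figure D3:**
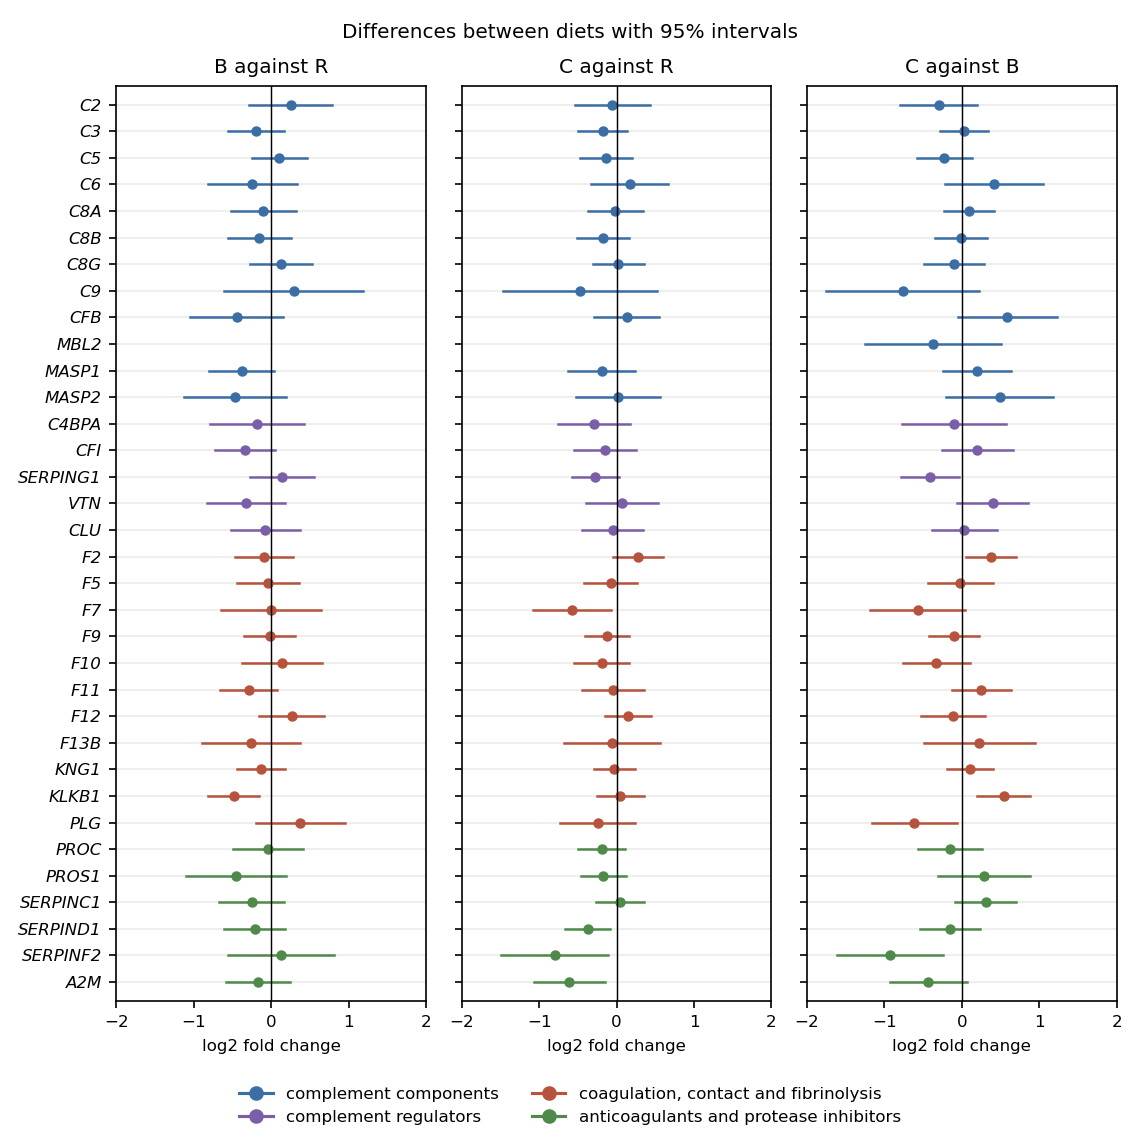
Log2 fold change (points) with its 95% interval (lines) for each complement and coagulation gene tested, for B against R, C against R and C against B, coloured by role; edgeR tested SERPINA1 in no pair and MBL2 only in C against B. Most intervals cross 0, and those of KLKB1 lie below 0 for B against R (-0.81 to -0.15) and above 0 for C against B (0.19 to 0.89).

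Some pigs were high or low for many members at once. Relative to the mean over all pigs, the median log2 deviation of the 34 detected members was 0.31 in C pig 3 and -0.25 in B pig 5, the highest and the lowest of all pigs. In C pig 3, 26 of 34 members lay above their mean, and in B pig 5 it was 5 of 34. The median over R pigs was 0.07 (range 0.00 to 0.23), over B pigs 0.02 (-0.25 to 0.07) and over C pigs -0.08 (-0.10 to 0.31). The ranges of the diets overlapped. C pig 3 also had the smallest library, the highest share of reads aligned to several places (38.1%) and the highest sum of hepatocyte markers, and the part of these in its values was not tested.

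Gilts and barrows were not spread evenly over the diets. A further fit set the barrows (n = 8) against the gilts (n = 8), with the pigs of all 3 diets together. By edgeR 0 of 33 members passed an adjusted p of 0.05, beside 0.0786% of all genes, and DESeq2 called 0 as well. At an unadjusted p under 0.05 there were 3, F10, F12 and SERPINF2, beside 4.02% of all genes, each with a lower level in barrows. The lowest, median and highest values of F10 were 180.4, 213 and 366 CPM in gilts and 145, 179 and 242 in barrows. For SERPINF2 they were 221, 485 and 839 CPM in gilts and 87.1, 291 and 580.1 in barrows. The sexes overlapped for both, with log2 fold changes of -0.42 ± 0.16 and -0.63 ± 0.30 (edgeR adjusted p = 0.998 for each), and F12 had -0.33 ± 0.14. B pig 3, a gilt, held the highest value of all 16 pigs for these 3 genes. In a fit without it, added after the data were seen, the log2 fold changes were -0.30 for F10, -0.22 for F12 and -0.48 for SERPINF2. In that fit 0 members were called by edgeR, and 1 (F10) was at an unadjusted p under 0.05, beside 3.15% of all genes. DESeq2 was not run without that pig. All 9 macrophage markers tested were on the lower side in barrows (median -0.42), 4 of them at an unadjusted p under 0.05, with 0 called by edgeR and by DESeq2. With B pig 3 left out it was 8 of 9 (median -0.34), 3 of them at that level. In the test of whether the difference between diets differed between the sexes, 0 members and 0 genes in all passed by edgeR in any pair, and 0 members had an unadjusted p under 0.05, beside 3.96, 3.98 and 3.52% of all genes. DESeq2 was not run for that term.

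Of the other complement genes, 18 of 29 on the list were matched and 13 tested. By edgeR 0 were called in each pair, beside 1.11, 0.138 and 0.0587% of all genes for B against R, C against R and C against B. At an unadjusted p under 0.05 there were 0, 2 and 2 in that order, beside 14.99, 12.97 and 11.5% of all genes. DESeq2 called 0, 1 and 1, in both cases C1QA, beside 3.24, 2.61 and 2.46% of all genes with an adjusted p. C1q, which opens the classical pathway, comes from macrophages rather than hepatocytes. Its A chain gene C1QA averaged 541 ± 138 CPM in R, 599 ± 219 (505 without B pig 3) in B and 346 ± 69.6 in C, and differed by -0.65 ± 0.19 on the log2 scale for C against R (edgeR adjusted p = 0.145) and -0.80 ± 0.22 for C against B (edgeR adjusted p = 0.210; -0.55 ± 0.17 without B pig 3). All 6 C pigs lay below all 5 B pigs for this gene, as held for 1.45% of all genes, while C and R overlapped. In these 2 pairs C1QA was called by DESeq2 with its default filter and by no other setting (adjusted p of 0.0360 to 0.342 and of 0.0292 to 0.537 over alternatives). C1QB averaged 47.4 ± 21.98, 74.6 ± 41.1 (56.9 without B pig 3) and 45.7 ± 17.96 CPM and C1QC 126 ± 42.8, 158 ± 69.3 (133 without B pig 3) and 117 ± 19.8 CPM. Of the other complement genes, 1 and 2 were at an unadjusted p under 0.05 for B against R and C against B without B pig 3. Of the others with the smallest p, with the range over each pig left out in parentheses, the log2 fold change was 0.81 (0.42 to 1.13) and 0.92 (0.63 to 1.24) for FCN2 (a ficolin of the lectin pathway) for B and C against R, -0.39 (-0.52 to -0.22) for COLEC11 (a collectin) for B against R, 0.36 (0.24 to 0.50) for VSIG4 (a complement receptor of macrophages) for C against R and -0.38 (-0.50 to -0.31) for CPN2 (a subunit of carboxypeptidase N) for C against B.

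Of the other coagulation and fibrinolysis genes, 29 of 35 were matched and 17 tested. By edgeR 0 were called in each pair, beside 1.11, 0.138 and 0.0587% of all genes for B against R, C against R and C against B. At an unadjusted p under 0.05 there were 1, 1 and 2 in that order, beside 14.99, 12.97 and 11.5% of all genes. DESeq2 called 0, beside 3.24, 2.61 and 2.46% of all genes with an adjusted p. FGB, the fibrinogen beta chain, averaged 18917 ± 2008 CPM in R, 22506 ± 5545 (24794 without B pig 3) in B and 19427 ± 3964 in C, and FGG, the gamma chain, 7981 ± 1768, 9661 ± 2496 (10237 without B pig 3) and 6580.2 ± 1205 CPM. FGB had 0.25 ± 0.20 on the log2 scale for B against R, and 0.39 ± 0.15 without B pig 3 (edgeR adjusted p = 0.590 and 0.197). Without that pig, 2 and 3 of these genes were at an unadjusted p under 0.05 for B against R and C against B. The share of all genes at that level is not given for these 2 fits, so the counts are not set against it. The log2 fold change of FGG for C against B was -0.55 ± 0.19 (edgeR adjusted p = 0.300; -0.64 ± 0.19 without B pig 3). No gene ID was matched to FGA, the alpha chain, so it is not analysed here and stands outside these counts. The paper lists FGA among its differentially expressed genes between B and C, at a lower level in C. With the range over each pig left out in parentheses, F2R, a thrombin receptor, had a log2 fold change of 0.63 (0.53 to 0.81) for B against R and 0.57 (0.28 to 0.75) for C against R. AMBP (the precursor of bikunin) had 0.32 (0.25 to 0.41) for C against R and 0.53 (0.42 to 0.65) for C against B, and ITIH2, a carrier chain of bikunin, -0.32 (-0.40 to -0.26) for B against R and 0.42 (0.31 to 0.51) for C against B. TFPI2, a protease inhibitor, had -0.97 (-1.13 to -0.43) for B against R and ITIH1 -0.64 (-0.98 to -0.31) for C against R.

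The regulators of liver secretory genes, which include factors of hepatocyte identity and of the interleukin-6 response, were all matched (19 of 19), and 16, 15 and 16 were tested in the 3 pairs. By edgeR 0 were called, beside 1.11, 0.138 and 0.0587% of all genes for B against R, C against R and C against B. At an unadjusted p under 0.05 there were 2, 0 and 2 in that order, beside 14.99, 12.97 and 11.5% of all genes. DESeq2 also called 0, beside 3.24, 2.61 and 2.46% of all genes with an adjusted p. For B against R the log2 fold changes, with the range over each pig left out in parentheses, were 0.48 (0.37 to 0.62) for CREB3L3, 0.51 (0.39 to 0.77) for HNF4A and 0.52 (0.39 to 0.70) for IL1R1, and for C against R 0.32 (0.26 to 0.38) for NR1H4, -0.33 (-0.39 to -0.26) for NFKB1 and 0.37 (0.27 to 0.52) for CREB3L3. For C against B they were -1.15 ± 0.40 for SOCS3, -0.90 ± 0.38 for STAT3 and -0.29 ± 0.19 for CEBPD (-1.46 to -0.89, -1.07 to -0.63 and -0.39 to -0.19 with each pig left out; edgeR adjusted p = 0.299, 0.394 and 0.579). Without B pig 3 SOCS3 had -1.46 ± 0.25 for C against B and passed (edgeR adjusted p = 0.0309; 0.0309 to 0.634 over the alternatives, of which no other called it). In B against R, 5 of 16 regulators were at an unadjusted p under 0.05 without that pig (CEBPB, CEBPD, SOCS3, IL1R1 and RELA), and the median log2 fold change was 0.38 in place of 0.34. All genes called by edgeR in that pair also rose, from 70 to 149, so this count is not read as a result about the regulators. For C against B it was 3, with a median of -0.18 in place of -0.14. SOCS3 had 0.65 (0.94 without B pig 3) for B against R.

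Markers of the cell types of liver are given beside these values. The hepatocyte markers summed to 137710 ± 20446 CPM in R, 117580 ± 33598 in B and 136060 ± 32215 in C, and the diets overlapped. B pig 3 had the lowest sum of all pigs, 73192 CPM, and C pig 3 the highest, 197970 CPM. The B mean without B pig 3 was 128670 ± 26159 CPM. Of the 10, TTR (transthyretin) fell in B against R, with -0.78 ± 0.17 on the log2 scale (edgeR adjusted p = 0.0426; 3.36e-04 to 0.111 over alternatives, 9 of 20 of which called it), from 6523 ± 949 to 3791 ± 621 CPM. CPS1, an enzyme of the urea cycle, had 0.83 ± 0.20 (edgeR adjusted p = 0.0627) and passed over the 3 diets (edgeR adjusted p = 0.0461; 0.00148 to 0.106 over alternatives). DESeq2 called TTR and CPS1 between B and R, between C and B and over the 3 diets. For C against B edgeR gave 0.54 ± 0.18 for TTR (edgeR adjusted p = 0.292) and -0.59 ± 0.17 for CPS1 (edgeR adjusted p = 0.235). The calls of TTR, CD163 and LYVE1 between B and R remained without B pig 3. TTR, like most of the members, is a secreted hepatocyte product.

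The Kupffer cell or macrophage markers, with 10 of 11 matched and C1QA the most abundant, summed to 1121, 1246, 1109, 874 and 659.9 CPM in R pigs 1 to 5 and 1275, 908, 1787, 949 and 1057 CPM in B pigs 1 to 5. In C they lay between 661 and 976 CPM. The sums of the diets overlapped. CSF1R had under 10 reads in all pigs together. CD163, a scavenger receptor of macrophages, rose in B against R by 0.79 ± 0.17 on the log2 scale (edgeR adjusted p = 0.0414; 0.00136 to 0.104 over alternatives, 11 of 20 of which called it), the sole marker of 9 tested to pass in that pair. Of these 9 markers, 6 were on the higher side and 3 on the lower in B against R (median log2 fold change 0.17). Without B pig 3, 4 of the 9 were on the lower side in that pair (median 0.01). In C against B, 8 of 9 macrophage markers tested were on the lower side, with a median log2 fold change of -0.49. By edgeR 0 were called and 5 were at an unadjusted p under 0.05, beside 11.5% of all genes, and DESeq2 called 1, C1QA. Without B pig 3, which had the highest sum of these markers, 6 of 9 were on the lower side, 3 of them at an unadjusted p under 0.05, with a median of -0.37. With the range over each pig left out in parentheses, CD68 had -0.62 (-0.74 to -0.37) in C against B and TIMD4 -0.68 (-0.82 to -0.50) in C against R. The part of these cells in the values of C1QA and of the members was not tested.

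The endothelial markers summed to 374 ± 75.4, 442 ± 40.6 and 392 ± 44.1 CPM in R, B and C. Among them LYVE1 rose in B against R by 0.88 ± 0.20 on the log2 scale (edgeR adjusted p = 0.0495), and 8 of 20 alternatives called it, with adjusted p from 0.0126 to 0.141. In C against R LYVE1 had 0.86 ± 0.21 (edgeR adjusted p = 0.104), and DESeq2 called it. All C pigs lay above all R pigs for LYVE1, narrowly (C pig 2 at 44.7 and R pig 2 at 44.1 CPM). Groups C and R did not overlap for 1.46% of all genes. Of the 5 endothelial markers tested in that pair, 3 were on the higher side and 2 on the lower, down to -0.54. On each side 1 was at an unadjusted p under 0.05, a level that 12.97% of all genes reached. KDR and CDH5 were on the lower side in B against R, at -0.50 (-0.81 to -0.33) and -0.31 (-0.47 to -0.09), with the range over each pig left out in parentheses, and CLEC4G was the most abundant. The stellate or fibroblast markers, led by COL3A1, summed to 592 ± 243, 522 ± 198 (449 without B pig 3) and 517 ± 153 CPM. Of 6 tested, 0 were called by edgeR in each pair, beside 1.11, 0.138 and 0.0587% of all genes in B against R, C against R and C against B. At an unadjusted p under 0.05 there were 1, 1 and 0 in that order, beside 14.99, 12.97 and 11.5% of all genes. In B against R, 5 of the 6 were on the lower side and ACTA2 on the higher, and RGS5, which did not pass the filter of edgeR with all pigs of the pair, was called by DESeq2, at a lower level in B (adjusted p = 0.00693, with 2.49e-04 to 0.140 over the alternatives that tested it). When B pig 3 was left out, RGS5 passed the filter and was called by edgeR too (-2.85 ± 0.67, edgeR adjusted p = 0.0338), and 3 of 7 stellate markers were at an unadjusted p under 0.05 (median log2 fold change -0.52). With all pigs the 1 marker at that level in B against R, ACTA2, was on the higher side. All genes called in that pair rose from 70 to 149 without B pig 3, so the count of 3 is not read as a result about these markers. RGS5 was at 13.2, 31.8, 43.95, 16.5 and 8.85 CPM in R and 0.764, 9.55, 7.88, 2.12 and 0 in B. Lymphocyte markers summed to 64.9 ± 23.5, 49.6 ± 17.4 and 44.98 ± 12.8 CPM, led by JCHAIN, which had -1.26 (-1.47 to -1.07 with each pig left out) on the log2 scale in C against R (edgeR adjusted p = 0.118). Markers of bile duct cells, neutrophils and platelets were near 0, with sums of at most 28.4, 19.7 and 5.13 CPM in a pig. Erythrocyte markers, which show blood in the tissue, summed to 2211 ± 1660.1, 2210.1 ± 537 and 3016 ± 1668 CPM.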

How the data were processed

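Per the labels and the methods of the study, liver RNA was made into 3′ libraries (QuantSeq FWD), reads were checked with FastQC, trimmed with FLEXBAR and aligned with TopHat to Sscrofa11.1, and HTSeq gave the read counts per gene of the Ensembl annotation that the authors deposited. The strand setting of the counting is not given in the sources used here. Lines that name no gene (reads on no gene, ambiguous or with several alignments) were left out. Symbols were matched to gene IDs by table, for 14857 of 25880 IDs, and positions come from RefSeq (Sscrofa11.1).

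From these counts edgeR 4.0.16 (R 4.3.3) was run with filterByExpr (minimum count 10, minimum total 15), TMM scaling and the quasi-likelihood test on the pigs of each pair, with Benjamini-Hochberg adjustment over all genes tested and a threshold of 0.05. Intervals are at 95%. DESeq2 1.42.0, other scalings and filters, all 16 pigs in 1 fit, sex in the model, a block for the replicate label and each pig left out in turn were the alternatives, with DESeq2 without its filter and the sexes without B pig 3 added after the data were seen. The edgeR script was tested on simulated data. No 2 of the 120 pairs of libraries held identical counts. P-values come from setting the difference between groups against the spread between pigs. The members and lists were chosen with earlier results of these data known. Statistics in full are given for the 6 members with the smallest p in each pair, levels for the 6 most abundant, and values for the 3 genes of each other list with the smallest p in each pair and for those past the threshold.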

Additional observations from a re-analysis of the deposited data

Results flagged for a closer look

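In 6 of 102 groups of 5 or 6 pigs (34 members in 3 diets), the highest or lowest pig stood far from the rest of its diet, measured as its gap to the nearest pig over the range of the group. Chance alone gives about 1 such group in 20. C2 was highest in C pig 3, at 46.3 CPM with the nearest C pig at 28.3 (gap over range 0.764). C8A was highest in R pig 1, at 1214 CPM with the nearest R pig at 779 (gap over range 0.780). C8G was highest in C pig 3, at 296 CPM with the nearest C pig at 217 (gap over range 0.667). CFB was lowest in R pig 4, at 297 CPM with the nearest R pig at 402 (gap over range 0.788). CFB was lowest in B pig 3, at 91.2 CPM with the nearest B pig at 299 (gap over range 0.719). PROC was highest in B pig 3, at 3592 CPM with the nearest B pig at 1918 (gap over range 0.895). B pig 3 appears for CFB and PROC, and C pig 3 for C2 and C8G. No member was called for a diet difference that differs between the sexes by the interaction test of edgeR (0 at an adjusted p under 0.05 and 0 at an unadjusted p under 0.05 in each pair, where 3.52 to 3.98% of all genes were at an unadjusted p under 0.05).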

How the results depend on the processing

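Of 371 combinations of a named member, a pair and an alternative, 0 reversed in sign and 369 were on the same side of the threshold. The other 2 were KLKB1 with DESeq2, for B against R and C against B. The named members were those with the smallest p in each pair, and the alternatives refit the same pigs or left 1 out. Their stable signs are therefore not read as a result about all members. Outside this selection some signs changed without B pig 3, such as those of C4BPA and F10 for B against R and of F12 for C against B. The number of members called by DESeq2 was 1 for B against R, 1 for C against B and 1 over the 3 diets. Without its filter on mean count DESeq2 called 0 members in each pair, and why its calls differ from those of edgeR was not tested. Without a filter on low counts, members at an unadjusted p under 0.05 numbered 3 for B against R and 5 over the 3 diets, where DESeq2 gave 5. With each pig left out in turn they numbered 1 to 3 for B against R, 2 to 5 for C against R, 3 to 8 for C against B and 2 to 5 over the 3 diets. Between barrows and gilts they numbered 1 without B pig 3, beside 3.15% of all genes. For the other alternatives, and for the block below, the share of all genes at that level is not given. Those counts are therefore not read as a result about the members. The median log2 fold change of coagulation, contact and fibrinolysis for C against B ran from -0.14 to 0.094 with each pig left out in turn. All genes called numbered 70, 9 and 4 in the order B against R, C against R, C against B with edgeR, 188, 93 and 53 with DESeq2, and 190, 82 and 22 without a filter. For B against R they ran from 9 to 149 with each pig left out. The labels number the pigs of each diet, but do not say that equal numbers pair them, and equally numbered pigs correlated at -0.25 to 0.14. With the number as a block, members at an unadjusted p under 0.05 were 2 for C against R and 3 for C against B, and all genes called 35 for B against R and 26 over the 3 diets.

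With 5 or 6 pigs per diet, differences smaller than the intervals could not be detected, and a p above the threshold does not show that diets are alike. Liver RNA says nothing on the plasma level or activity of these proteins, which were not measured. Diet cannot be told apart from order of sampling or library batch, which are not given in the sources used here.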
